A study of Rattus with 9 samples.

Results

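The 9 genes described here encode complement proteins and receptors: the C1q chains C1qa, C1qb and C1qc, the protease C1s, the components C2 and C3, the C1 inhibitor Serping1, and the receptors C3ar1 and C5ar1. They were selected by symbol from 17378 genes in the count table, and all 9 were among the 11711 genes that passed the filter on low counts. The choice was made with earlier results of the infarction comparison in view. The levels in infarcted and sham rats are therefore given as a description with no p-value printed for any of the 9, and counts of calls stand only beside the share over all genes.

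Thoracic dorsal root ganglia were taken from SD rats 8 weeks after coronary ligation, which causes myocardial infarction (MI, n = 5), or after sham surgery (Sham, n = 4). Ages are not given in the sources used here, and the deposited sample sheet places the ganglia at T1 to T4. The RNA of each rat made 1 mRNA library, and the deposited tables call the MI group CHF. Whole ganglia were used, so each value mixes neurons, glia, macrophages, fibroblasts, vessel cells and blood. Total counts per library lay between 5656582 and 6861355. The RNA integrity number lay between 8.0 and 8.5. The 5 neuron markers were present in every library, with a summed level of 14079 to 15755 CPM.

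Complement is a cascade of plasma and tissue proteins that tags cells and debris for removal. In the classical pathway C1q binds the target and activates the proteases C1r and C1s, which cleave C4 and C2 so that C3 can be split. The fragments C3a and C5a signal through the receptors C3ar1 and C5ar1, and the C1 inhibitor Serping1 blocks C1r and C1s. In nervous tissue C1q is known as a product of macrophages and microglia, while fibroblasts are known to make C1r, C1s and the C1 inhibitor.

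Per gene length, the genes of the C1 complex and its inhibitor stood far above C3 and the receptors. The values below are RPKM, reads scaled to gene length and to the reads of the library, averaged over all 9 rats. Serping1 led with 62.4 ± 9.01 RPKM (SD, n = 9), which placed it above 92.2% of all tested genes. C1s followed at 39.0 ± 5.77 RPKM (SD, n = 9).

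The C1q chains came next and stood close together. C1qc had 31.6 ± 4.93 RPKM (SD, n = 9), C1qa 26.9 ± 4.53 RPKM and C1qb 21.7 ± 4.06 RPKM. C2, the serine protease that forms part of the C3 convertase, was lower at 8.38 ± 1.34 RPKM (SD, n = 9), near the middle of the tested genes. C3, the component on which all complement pathways converge, had only 1.46 ± 0.488 RPKM (SD, n = 9). The receptor C5ar1 had 1.89 ± 0.392 RPKM and the receptor C3ar1 0.596 ± 0.222 RPKM, which only 2.95% of tested genes fell below.

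**Figure D1:**
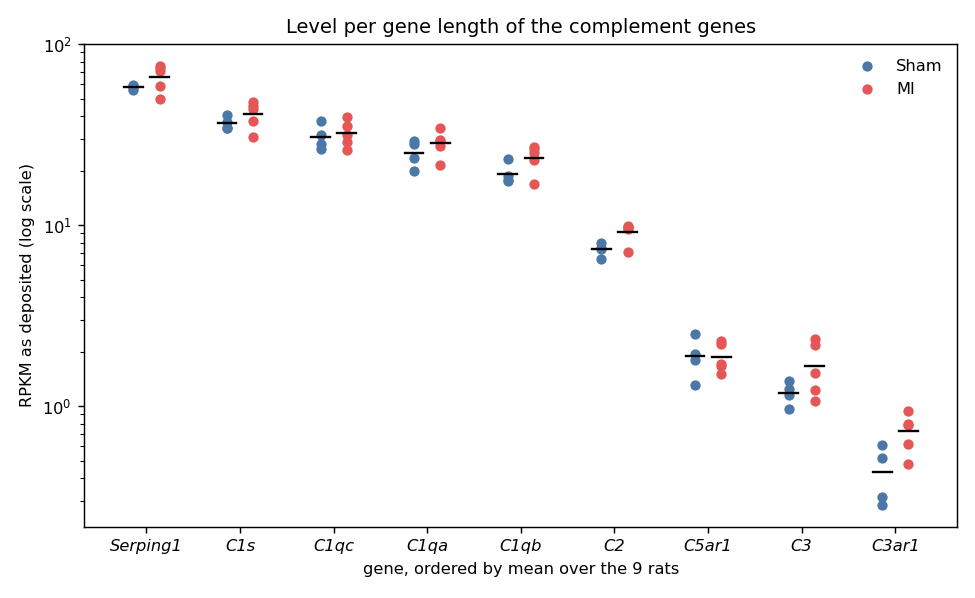
RPKM of the 9 complement genes as deposited (vertical log axis) in 4 Sham rats (blue) and 5 MI rats (red), with group means as bars and genes ordered by their mean over all 9 rats. The C1 inhibitor, C1s and the C1q chains lie between 16.8 and 75.8 RPKM, while C5ar1, C3 and C3ar1 reach at most 2.51 RPKM.

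Neighbours in this order were compared on log2(RPKM + 0.1) with a two-sided exact sign-flip permutation test over the 9 rats. The p-values were adjusted by Benjamini-Hochberg over the 8 neighbouring pairs. The order was taken from the same 9 rats, so a p describes only how steadily a step repeated between rats. An error in the length used for a gene would be shared by all rats and is not covered. Serping1 exceeded C1s in all 9 rats by a log2 difference of 0.68 ± 0.07 (SD, n = 9, exact permutation adjusted p = 0.00625). C1s exceeded C1qc in 8 of 9 rats, by 0.30 ± 0.22, and C1qc exceeded C1qa in 8 of 9, by 0.24 ± 0.17 (exact permutation adjusted p = 0.00893 for each). C1qa exceeded C1qb in all 9 rats, by 0.31 ± 0.15 (exact permutation adjusted p = 0.00625).

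The next steps down, from C1qb to C2 and from C2 to C5ar1, measured 1.36 ± 0.17 and 2.10 ± 0.34 on the log2 scale and held in 9 of 9 rats each (exact permutation adjusted p = 0.00625). The same p was found from C3 to C3ar1, a step of 1.18 ± 0.45. It is near the smallest this design allows, since 9 rats cannot give an unadjusted p under 0.00391. C5ar1 and C3 were the weakest step: C5ar1 was higher in 6 of 9 rats by 0.38 ± 0.44 (exact permutation adjusted p = 0.0469). With a pseudocount of 1 this step did not pass (adjusted p = 0.0625). Nor did it pass with Sham 1, Sham 4, MI 3 or MI 4 removed (adjusted p = 0.0938 each), with Sham 2 removed (0.0859) or with Sham 3 removed (0.0703).

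The 3 C1q chains assemble in equal numbers in the protein, and their transcripts shared the summed C1q level in similar parts. C1qc made up 39.5% ± 2.50 (SD, n = 9) of the summed C1q RPKM, C1qa 33.5% ± 2.20 and C1qb 26.9% ± 1.71. In the RefSeq annotation (assembly GRCr8) C1qb, C1qc and C1qa follow each other with no other protein-coding gene between them. The RPKM ratio of C1s to its inhibitor Serping1 was 0.626 ± 0.0293 (SD, n = 9), ranging from 0.579 to 0.687.

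In the comparison of MI with Sham rats, 8 of the 9 genes had a higher mean after infarction and none passed the test. The edgeR likelihood-ratio test, fitted on all genes with a threshold of 0.05 on the Benjamini-Hochberg adjusted p, called 0 of the 9. It called 2 of 11711 genes in all, or 0.0171%. At an unadjusted p under 0.05 the count was 4 of the 9, where the share over all tested genes was 4.64%. The quasi-likelihood test, DESeq2 and limma-voom also called 0 of the 9. Nothing is read from these counts, because the genes were proposed with this contrast known.

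The median log2 fold change was 0.18 over the 9 genes, 0.17 over the 3 C1q genes and 0.25 over the other 6, beside 0.0017 over all tested genes. Of all tested genes 50.8% had a log2 fold change above 0. The difference between the C1q genes and the others was not tested. In none of the 9 did every MI rat lie above every Sham rat, a pattern seen in 0.837% of all tested genes. Nor did every MI rat lie below every Sham rat in any of the 9, as was the case in 0.905% of all tested genes. Fewer cells of a type and less RNA per cell cannot be told apart in these whole ganglia.

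Values by rat are given as CPM, the count as a part of the library's total after TMM scaling. The SE beside a fold change is that of the difference between group means on the log2 CPM scale.

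The C1q chains overlapped between the groups, and differences between the chains were not tested. C1qa, the first of the chains, stood at 46.7, 38.9, 48.0 and 33.1 CPM in Sham rats 1 to 4 and at 48.6, 44.7, 48.9, 35.6 and 56.8 CPM in MI rats 1 to 5. MI 1, MI 3 and MI 5 lay above every Sham rat, MI 1 and MI 3 only narrowly. MI 2 and MI 4 lay inside the Sham range, Sham 4 was lowest, and the log2 fold change was 0.17 (SE 0.16). It was 0.0746 without Sham 4 and 0.0940 without MI 5. C1qb had 33.5, 30.8, 41.2 and 31.7 CPM in Sham and 40.7, 43.9, 47.0, 30.1 and 48.1 CPM in MI rats. Here MI 2, MI 3 and MI 5 lay above every Sham rat, MI 4 lay below all of them, and the log2 fold change was 0.29 (SE 0.16).

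C1qc had 53.8, 44.7, 63.7 and 47.9 CPM in Sham rats and 48.8, 52.9, 67.7, 44.5 and 60.1 CPM in MI rats. Its groups were nearly superimposed: the log2 fold change was 0.06 (SE 0.16), and it turned to -0.0092 without Sham 2 and to -0.028 without MI 3. The share of C1qb in the summed C1q RPKM averaged 28.0% ± 1.29 for MI (SD, n = 5) and 25.7% ± 1.27 for Sham rats (SD, n = 4). The share of C1qc was 38.3% ± 2.61 in MI and 41.0% ± 1.57 in Sham rats, and the ranges overlapped for both chains. Relative to its mean over all rats, the averaged C1q level stood at 0.07 on the log2 scale in MI rats and at -0.09 in Sham rats.

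C1s, the protease that cleaves C4 and C2, and Serping1, its inhibitor, had nearly the same profile over the MI rats. Among the Sham rats they differed, and Sham 3 was the lowest of them for C1s but the highest for Serping1. C1s stood at 166, 193, 164 and 178 CPM in Sham and 179, 216, 229, 148 and 209 CPM in MI rats. Serping1 stood at 167, 174, 175 and 171 CPM in Sham and 175, 217, 225, 149 and 211 CPM in MI rats. For both genes MI 2, MI 3 and MI 5 lay above every Sham rat and MI 4 lay below every Sham rat, so the MI rats fell on either side of the Sham range. The log2 fold change was 0.16 (SE 0.14) for C1s and 0.18 (SE 0.13) for Serping1. For C1s it was 0.0995 without MI 3 and 0.25 without MI 4.

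The spread of Serping1 was 2.17% of the mean among Sham rats and 16.5% among MI rats, where counting error alone would give about 3.08% and 2.85%. C1s showed 7.67% and 16.7% for the same quantities, with 3.05% and 2.84% from counting. C1r, the partner protease of C1s and its neighbour in the annotation, had 113 ± 2.25 CPM (SD, n = 4) in Sham and 130 ± 17.6 CPM (SD, n = 5) in MI rats. Its spread was likewise wider in MI rats, at 13.6% against 1.98%. Counting error alone would give 3.49% and 3.79%, so the Sham spread of C1r, like that of Serping1, lay below counting error. The spread was not wider in MI for C1qa (16.4% against 16.7% in Sham), C3ar1 (24.5% against 36.6%) and C5ar1 (18.5% against 26.4%). It was wider in MI for the rest of the 9 genes, and the share over all tested genes is not given here. MI 4 was the lowest MI rat for Serping1, C1s and C1r. These spreads, and the part of MI 4 in them, were not tested.

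C2 came closest to separating the groups. It stood at 28.3, 31.8, 32.1 and 34.6 CPM in Sham rats and at 42.6, 41.6, 41.2, 30.6 and 41.7 CPM in MI rats. Apart from MI 4 the MI rats formed a tight cluster above every Sham rat, while MI 4 lay inside the Sham range. The log2 fold change was 0.32 (SE 0.11), a fold of 1.25, and without MI 4 it was 0.39. That fit called C2, so 1 of the 9 genes passed, where 4 of 11679 genes passed in all (0.0342%). Each rat was left out in turn, and no other such fit called any of the 9. The fit removes the MI rat that lay inside the Sham range, so nothing is read from this call.

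The library of MI 4 differed from the other MI rats in several measures. Its RNA yield was 8.20 µg, against 2.71 to 5.52 µg in the other MI rats. The summed level of 6 fibroblast markers was 3478 CPM in MI 4, 3809 to 6023 in the other MI rats and 4437 to 5457 in Sham rats. Its 4 red blood cell markers summed to 1954 CPM, the lowest of all libraries, and its 5 neuron markers to 15755 CPM, the highest. The part of these differences in the complement values was not tested.

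C3 stood at 9.80, 8.06, 11.5 and 10.5 CPM in Sham rats and at 12.7, 19.5, 10.4, 8.99 and 18.2 CPM in MI rats. MI 2 and MI 5 stood well above all other rats and MI 1 slightly above the Sham range, while MI 3 and MI 4 lay inside it. The log2 fold change was 0.49 (SE 0.26), and removing any 1 library left it between 0.34 and 0.61. With a pseudocount of 1 on the RPKM scale it was 0.26. C3 rested on 51 to 124 counts per library.

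The receptors were the least abundant of the 9 genes and rested on few counts. C3ar1, the receptor of C3a, had 6, 6, 13 and 11 counts in Sham and 10, 19, 17, 16 and 14 counts in MI libraries. In CPM these were 1.07, 0.949, 2.05 and 1.75 in Sham and 1.61, 3.12, 2.67, 2.66 and 2.05 in MI rats. MI 2, MI 3 and MI 4 were above the Sham range, MI 5 level with Sham 3, and the log2 fold change was 0.71 (SE 0.25), the largest of the 9 genes.

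At these depths counting error alone gives a spread of 33.3% in Sham and 25.6% in MI, close to the measured 36.6% and 24.5%. With a pseudocount of 1 on the RPKM scale the log2 value of C3ar1 was 0.27. C3ar1 was also the 1 gene of the 9 in which MI 4 lay above the Sham range.

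C5ar1, the receptor of C5a, had 5.70, 3.79, 5.21 and 7.33 CPM in Sham rats and 4.34, 6.57, 6.44, 5.00 and 4.84 CPM in MI rats. All MI rats lay within the Sham range. Its log2 fold change of -0.019 (SE 0.21) was the only negative value among the 9 and turned positive in 7 of 21 alternative fits. It reached 0.15 without Sham 4 and -0.16 without Sham 2.

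**Figure D2:**
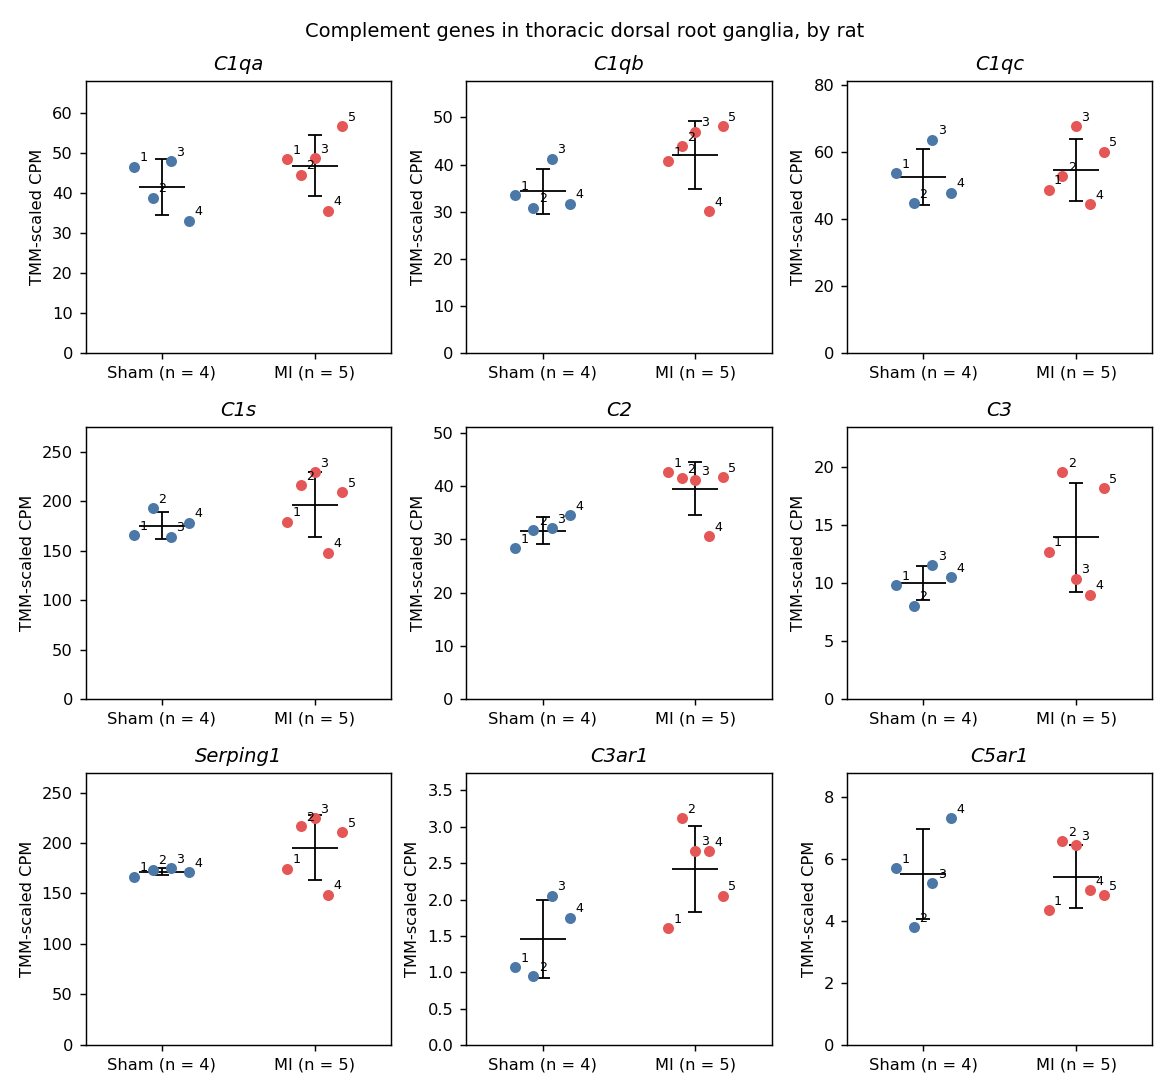
TMM-scaled CPM (vertical axes, from 0) of each complement gene in 4 Sham and 5 MI rats. Points carry the rat number, and bars show the group mean with 1 SD. MI 4 lies below every Sham rat for C1qb, C1qc, C1s and Serping1, and inside the Sham range for C2, where the other MI rats lie between 41.2 and 42.6 CPM.

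Of 43 further complement genes listed by role, 37 were in the count table and 26 passed the filter. The likelihood-ratio test called 0 of these 26 in either direction, and at an unadjusted p under 0.05 it had 8 (7 higher and Cfp lower). Over all tested genes 0.0171% were called and 4.64% had such an unadjusted p. The quasi-likelihood test, DESeq2 and limma-voom also called 0, with 8, 6 and 5 genes at an unadjusted p under 0.05. In MI rats 20 of the 26 had a higher mean and 6 a lower one, where 50.8% of all tested genes were higher, and the median log2 fold change was 0.15. The list was written with earlier results of these data known.

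The other classical components had higher means in MI rats. C4b, a C4 gene, stood at 9.62, 16.6, 18.3 and 11.6 CPM in Sham and 24.6, 22.3, 16.8, 13.5 and 32.4 CPM in MI rats, with log2 0.64 (SE 0.31, edgeR adjusted p = 0.834). MI 1, MI 2 and MI 5 lay above the Sham range and MI 3 and MI 4 inside it. C4a, named after its values were seen, had 58.5 ± 4.72 CPM (SD, n = 4) in Sham and 78.4 ± 22.4 CPM (SD, n = 5) in MI rats, with log2 0.42 (SE 0.22, edgeR adjusted p = 0.896).

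C4a and C4b are near-identical copies, and their estimated counts held fractions in all 9 libraries, so reads may have been split between them and each value is uncertain. C1r, the most abundant classical gene besides the 9, had log2 0.19 (SE 0.10, edgeR adjusted p = 1.00).

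Alternative pathway genes went in different directions. Cfd, the protease factor D, known also as adipsin, had 7.26 ± 1.80 CPM (SD, n = 4) in Sham and 10.2 ± 1.78 CPM (SD, n = 5) in MI rats, with log2 0.50 (SE 0.19, edgeR adjusted p = 0.869). The 4 adipocyte markers summed to 1.60 to 9.01 CPM in Sham and 3.46 to 13.2 CPM in MI rats. Of these, 2 were tested and both had higher means in MI, and their part in the Cfd value was not tested.

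Cfp, properdin, which stabilises the alternative convertase, stood at 8.37, 20.2, 11.9 and 16.4 CPM in Sham and 10.6, 11.0, 8.33, 4.66 and 11.1 CPM in MI rats. Its log2 fold change of -0.64 (SE 0.35, edgeR adjusted p = 0.927) was the lowest in the list, and MI 4 was again the lowest rat. Sham 1 stood as low as the MI rats.

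Terminal, lectin and regulator genes followed, none of them called. C6, a component of the membrane attack complex, had log2 0.55 (SE 0.23, edgeR adjusted p = 0.985) at only 5.02 CPM over all rats. C8g had log2 -0.04 (SE 0.16) and the scavenger receptor Colec12 log2 0.11 (SE 0.19). Clu, clusterin, an inhibitor of the attack complex, was by far the most abundant complement gene with 436 ± 45.3 RPKM (SD, n = 9), and had log2 0.10 (SE 0.10, edgeR adjusted p = 1.00). The membrane inhibitor Cd59 followed with 201 ± 11.8 RPKM and log2 0.08 (SE 0.05).

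Cd55, which speeds the decay of the convertases, had 78.8 ± 11.5 RPKM (SD, n = 9) and log2 -0.13 (SE 0.16). Among receptors the integrin chain Itgb2 had log2 -0.0074 (SE 0.20). Of the genes below the filter, Mbl1 had no count in any library.

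**Figure D3:**
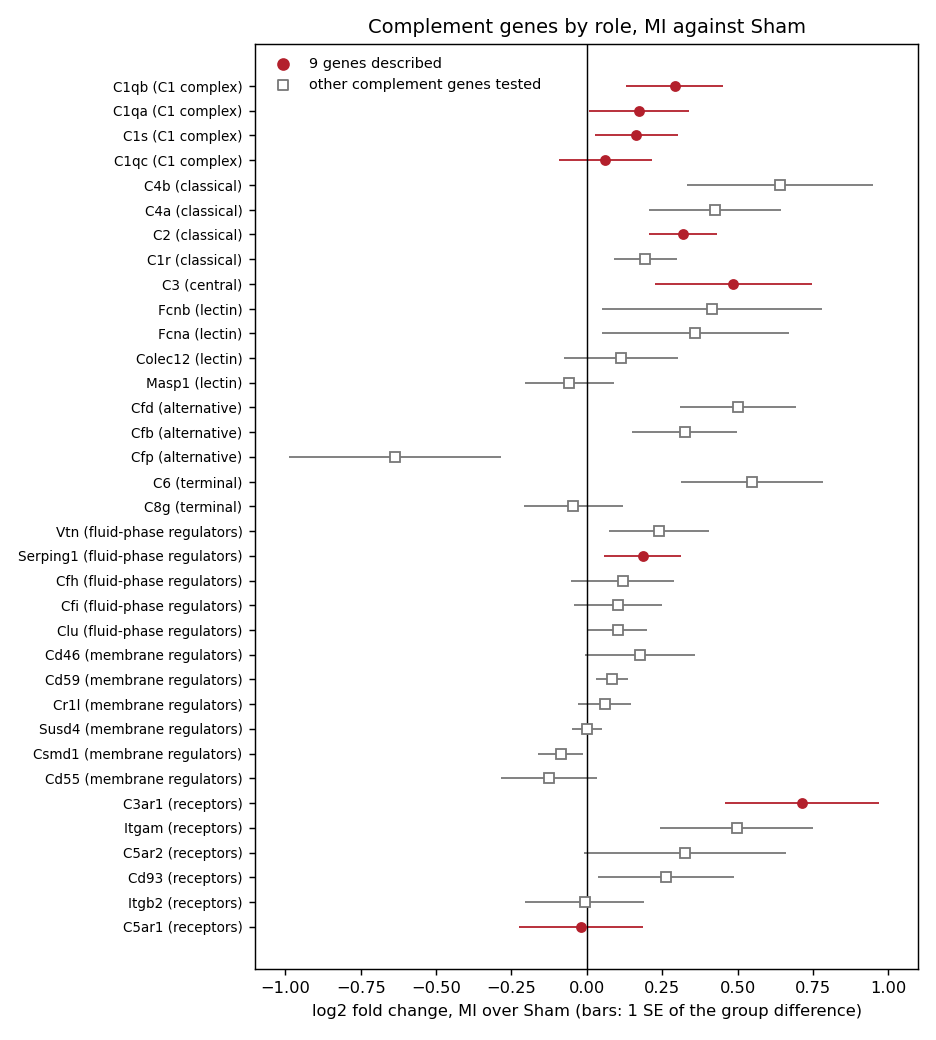
Log2 fold change of MI over Sham (horizontal axis, bars of 1 SE) for the 9 described complement genes (red circles) and 26 other tested complement genes (grey squares), grouped by role. Most points lie right of 0, up to 0.71 for C3ar1, while Cfp lies at -0.64.

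Of the 9 genes, 8 have a row in the authors' deposited table and none of them passed an adjusted p of 0.05, where 60 of 8000 rows passed (0.75%). That table has no row for C5ar1 and fewer rows than the count table, so its share is one of the rows it holds. Of 24 other complement genes with a row there, 3 passed. Their folds in the authors' deposited table were 1.34 for C4a (adjusted p = 0.000276), 1.56 for C4b (adjusted p = 0.00122) and 0.642 for Cfp (adjusted p = 0.0294). A fit here with 1 common dispersion called the same 3 genes, where it called 70 of 11711 genes (0.598%). That fit gives every gene the same dispersion. The main test, with a dispersion for each gene, called none of the 3, and neither did any other fit here.

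Macrophage markers were compared with each gene between rats of the same group. The score of a library was the mean centred log2 CPM of 18 macrophage markers, none of them a C1q gene. Group means were removed from both sides, so the infarction contrast does not enter. Permutation was exact over the 2880 orders of rats within groups, and p-values were adjusted over the 9 genes.

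With all 18 markers and all 9 rats, r was higher for C3 and the C1q chains than for the other 5 genes, an order that was not tested. Pearson's r was 0.85 for C1qb (Spearman's rho 0.88, n = 9, exact permutation p = 0.0139 and adjusted p = 0.0625 for r, p = 0.00521 and adjusted p = 0.0469 for rho). It was 0.71 for C1qc (rho 0.77, exact permutation p = 0.050 for r and 0.0347 for rho) and 0.69 for C1qa (rho 0.78, exact permutation p = 0.0722 for r and 0.0319 for rho), with adjusted p = 0.13 for r and 0.0781 for rho in each. Without Sham 2 and Sham 4, the rats farthest from the median score, r was 0.85 for C1qb, 0.56 for C1qc and 0.61 for C1qa (exact permutation p = 0.0542, 0.254 and 0.204).

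C3 was the 1 gene of the 9 past the threshold for r, with r = 0.76 (rho 0.78, n = 9, exact permutation p = 0.00417, adjusted p = 0.0375 for r, p = 0.0132 and 0.0594 adjusted for rho). Without Sham 2 and Sham 4 its r was 0.82 (exact permutation p = 0.00833). Removing 1 rat ended the C3 call in 7 of 9 cases, with adjusted p = 0.0875 for Sham 1, 0.075 for Sham 2, 0.10 for Sham 3, 0.0625 for MI 1, 0.133 for MI 2, 0.297 for MI 4 and 0.109 for MI 5. In all 9 cases r lay between 0.62 and 0.84. Without MI 2 the test called C1qb (adjusted p = 0.0156) and C1qc (0.0391) in place of C3.

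The remaining genes had lower values of r, which were 0.60 for Serping1, 0.49 for C2, 0.39 for C3ar1, 0.34 for C1s and 0.32 for C5ar1. Their rho values were 0.60, 0.18, 0.50, 0.25 and 0.28, and their exact permutation adjusted p-values for r were 0.13, 0.301, 0.437, 0.450 and 0.463. Without Sham 2 and Sham 4 the r values were 0.80, 0.88, 0.33, 0.75 and 0.33 in the same order (exact permutation p = 0.0292, 0.0667, 0.483, 0.0958 and 0.617). C2, Serping1 and C1s then stood above C1qa and C1qc. Without MI 4 alone, r was -0.19 for C2, 0.18 for Serping1 and -0.37 for C1s. It was then 0.47 for C1qa, 0.58 for C1qc, 0.75 for C1qb, 0.62 for C3, 0.65 for C3ar1 and 0.30 for C5ar1. The order thus depends on which rats are kept. With only Csf1r, Aif1, Cx3cr1 and Ptprc in the score, r was 0.66 for C3ar1, 0.66 for C3 and 0.50 for C5ar1, but only 0.16 for C1qa, 0.28 for C1qb and 0.32 for C1qc, and 0 of the 9 genes passed (exact permutation adjusted p from 0.358 to 0.825). The 18 macrophage markers summed to 737 to 842 CPM in MI and 627 to 844 CPM in Sham rats, 14 of 18 had a higher mean in MI, and none was at 0 in all libraries. On the log2 scale the C1q profile minus the macrophage score gave -0.01 ± 0.17 for MI (SD, n = 5) and 0.02 ± 0.08 for Sham (SD, n = 4).

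**Figure D4:**
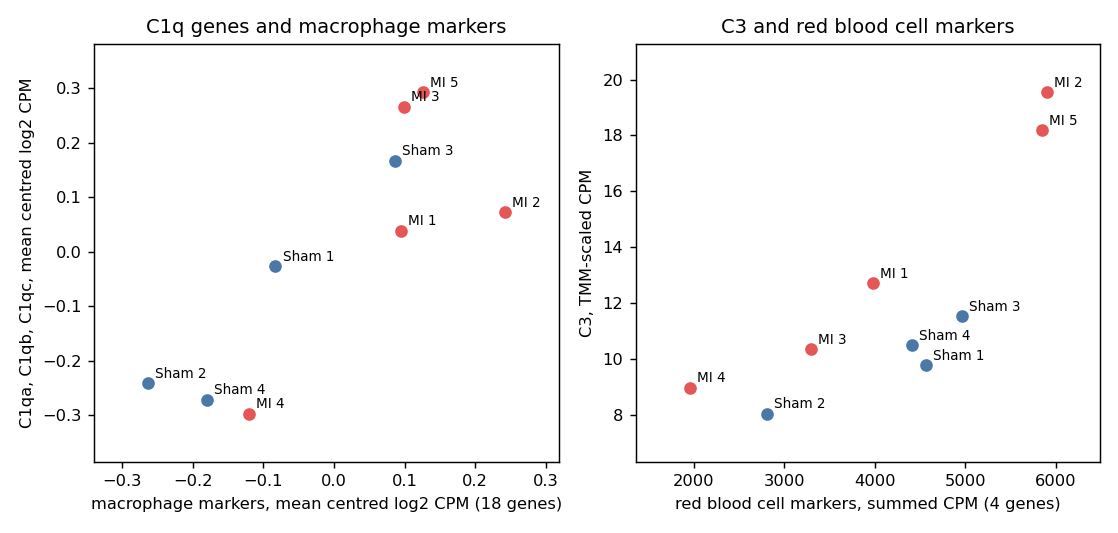
Left, mean centred log2 CPM of C1qa, C1qb and C1qc (vertical) against that of 18 macrophage markers (horizontal) in 9 rats. Right, C3 in CPM (vertical) against the summed CPM of 4 red blood cell markers (horizontal). Sham rats are blue and MI rats red. Sham 2, Sham 4 and MI 4 are low on both axes of the left plot, and MI 2 and MI 5 are high on both axes of the right plot.

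Red blood cell markers were compared with the 9 genes in the same way, but only after seeing the data. Their score had r = 0.93 with C3 (rho 0.90, n = 9), above the 0.76 of the macrophage score. Hba1 and Alas2, both in that list, were among the 3 genes most like C3, so no p is printed for it. The 4 markers (Hba1, Hba2, Hbb and Alas2) summed to 4564, 2809, 4964 and 4407 CPM in Sham rats and to 3978, 5900, 3296, 1954 and 5846 CPM in MI rats. The rats highest in C3, MI 2 and MI 5, were highest in these markers, and MI 4 was lowest among MI rats in both.

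None of the 4 markers was at 0 in all libraries, and 2 of 4 had a higher mean in MI. The part of blood in the C3 value was not tested. The 4 liver markers, from the main source of plasma complement, were too low to pass the filter. They summed to 10.1 CPM in Sham 2 and 8.54 CPM in MI 2, and to 0.158 to 1.47 CPM in the other rats.

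With 6 fibroblast markers, also chosen after seeing the data, 0 of the 9 genes passed, and 0 had an unadjusted exact permutation p under 0.05. The r values for Serping1 and C1s were 0.74 and 0.61 (rho 0.62 and 0.58, n = 9, exact permutation p = 0.130 and 0.202 for r, 0.190 and 0.207 for rho). Without MI 1 and MI 4 they turned to -0.76 and -0.67 (exact permutation p = 0.132 for each), so the positive values rest on those rats. Interferon-response markers belong to a pathway known to raise C1 inhibitor and C2 in other cells. Their sums were 188 to 217 CPM in Sham and 220 to 261 CPM in MI rats, which did not overlap. As mean centred log2 CPM the groups did overlap, with Sham 2 at 0.030 above MI 2 at -0.067 and MI 4 at 0.0057. Of these 8 markers 7 had a higher mean in MI, 0 passed the likelihood-ratio test, none was at 0 in all libraries, and their part in the complement values was not tested.

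Pairs of the 9 genes were compared in the same way, with p-values adjusted over 36 pairs. No pair was past the threshold by Pearson's r, and 6 had an unadjusted exact permutation p under 0.05. C1qb with C1qc came closest, with r = 0.88 (rho 0.87, n = 9, exact permutation p = 0.00139 for r and 0.00417 for rho). The adjusted p was 0.050 for r, not below the threshold, and 0.075 for rho. Without Sham 2 and MI 4 its r was 0.89 (exact permutation p = 0.0208).

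C1s with Serping1 had the highest r of all pairs at 0.94 (rho 0.87, n = 9, exact permutation p = 0.00556, adjusted p = 0.0958 for r, p = 0.0347 and 0.25 adjusted for rho). Without MI 3 and MI 4 it was 0.76 (exact permutation p = 0.0972). Among the 3 pairs of C1q chains r ran from 0.73 to 0.88, with a median of 0.83. Both pairs with C1qa were lower without MI 4 and Sham 4. Their r was then 0.69 with C1qb and 0.64 with C1qc (exact permutation p = 0.167 and 0.222). The 18 pairs of a C1q chain with another gene had a median of 0.36 and a range of -0.23 to 0.82, the highest for C1qb with Serping1. The other 15 pairs had a median of 0.36. The difference between these kinds of pair was not tested.

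**Figure D5:**
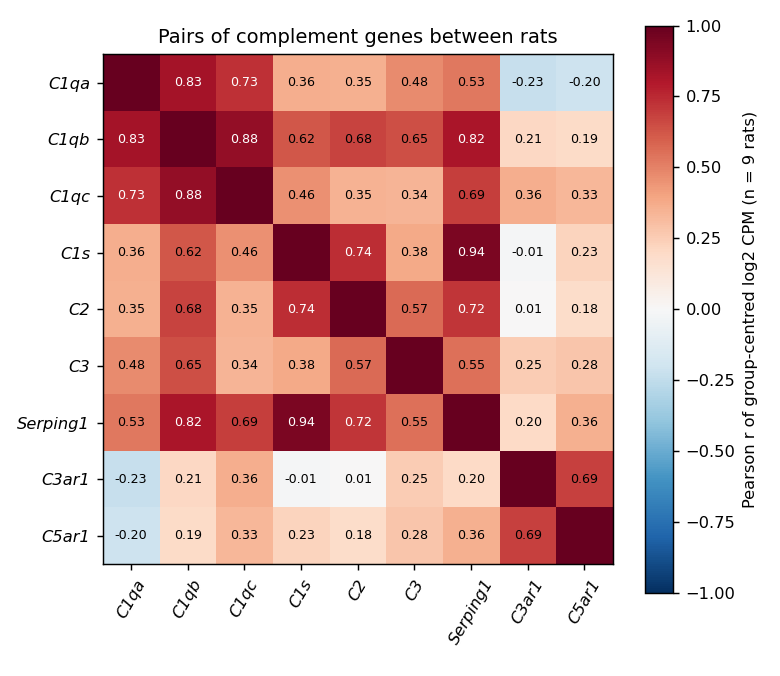
Pearson r of group-centred log2 CPM for each pair of the 9 complement genes over 9 rats, on a colour scale from -1 (blue) to 1 (red). The 3 C1q chains have r from 0.73 to 0.88 among themselves, C1s and Serping1 reach 0.94, and C3ar1 and C5ar1 have 0.69 with each other.

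The genes whose profile over the 9 rats was most like that of the C1q chains were taken from 11509 genes with a mean log2 CPM of at least 1. Likeness is Pearson's r of group-centred log2 CPM with the mean C1q profile, given as a description with no p, since the highest of so many values is large by selection. Map4k1, a kinase of blood cells, led with 0.98 at only 4.07 CPM. Lyve1, a hyaluronan receptor of lymphatic vessels and some tissue macrophages, had 0.95 at 27.2 CPM. The lysosomal proteases Ctss and Ctsl ranked 6 and 9 with 0.94 and 0.93, at 49.5 and 381 CPM.

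The transcription factor gene Gata2 (0.95) and the chromatin genes Pcgf2 (0.94) and Phf10 (0.94) ranked 3, 4 and 5, before Ctss and Ctsl. The rest of the 10 were the receptor-modifying gene Ramp2 (0.94), Farp1 (0.94) and Rab3b (0.93). None of the 10 belonged to the macrophage list. For C1s the 3 most alike genes were Mxd1, Mxd4 and Csnk1d (0.93 to 0.94), for C2 Vps37c, Slc1a5 and Wipi2 (0.95 to 0.98), and for Serping1 Tut1, Cd1d1 and Sulf2 (0.97 each). C3 was most like Hba1, Postn and Alas2 (0.95 to 0.96). C3ar1 was most like Pwwp2a, Tagap and Ydjc (0.95 to 0.97), and C5ar1 like Ctsc, Atpaf2 and Cdh19 (0.92 to 0.96).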

How the data were processed

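Per the series' design text, demultiplexing of the 75 bp reads used bcl2fastq 2.16.0.10, and cutadapt trimming preceded alignment by STAR 2.3.0 to rn6. Genes were summarised with the Partek 6.6 annotation. The deposited whole-number counts were rounded by the authors from deposited estimated counts. The deposited RPKM values are the authors' own, and count and RPKM together give each gene's length, a whole number of bases for the 9 genes, with total reads as the library size. Reads per library, and the percent of them by genomic region, come from a deposited summary of the alignments. RNA yield and integrity come from a deposited sample sheet, whose note gives extraction days without assigning rats to them, so an extraction batch could not be tested. The authors' deposited test table gives a fold of MI over Sham as a ratio, p-values and adjusted p-values.

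The main test was the likelihood-ratio test of edgeR 4.0.16 under R 4.3.3, as in the design text, after filterByExpr and TMM and with tagwise dispersions, with limma 3.58.1 and DESeq2 1.42.0 as alternatives. Log2 CPM used a prior count of 2. Levels and correlations were computed in Python 3.11.15 with exact permutation tests, all two-sided. Both kinds of test were checked on simulated data. No step records strand, so overlapping genes cannot be separated. Intervals of counting cover counting error only. The members, lists and tests were chosen with earlier results of these data known. All 9 genes were named. Of other complement genes the rule named, per role, the 1 with the highest RPKM, the 2 highest and 2 lowest log2 fold changes, and the 10 (C1q) or 3 most alike genes. Titles name 1 rat per library, so p-values reflect the spread between rats.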

Additional observations from a re-analysis of the deposited data

Results flagged for a closer look

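In each group of rats the highest and the lowest library were compared with the gap to the next one (Dixon's test at the 95% level). Of 52 groups tested 4 stood out, where chance gives about 2.6.

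The MI rat number 4 gave the 1 outlying value among the 9 genes, a C2 level of 30.64 CPM where the remaining MI rats had 41.16 to 42.64 CPM. The depth of Sham 1 stood apart: it had 9359000 reads where its group otherwise had 10390000 to 10460000, and its total count was 5657000 where the others had 6306000 to 6313000. The intergenic share of reads was 28.80% in Sham 2 and 29.32% to 29.34% elsewhere in its group.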

How the results depend on the processing

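The count of 2 genes called over the whole table became 0 with the quasi-likelihood test, limma-voom and both RPKM scales, 70 with 1 common dispersion, 6 with no filter, and 2 to 8 over the fits without 1 library (8 without Sham 3 or MI 1, 6 without MI 5, 4 without MI 4). The 9 genes gave 0 calls in every alternative except 1 call, C2, without MI 4, a range of 0 to 1. The 26 other complement genes gave 3 calls with 1 common dispersion and 0 in every other alternative run. Of 189 alternative log2 fold changes of the 9 genes, 179 kept their sign and moved by less than 1 SD between rats, 1 kept its sign and moved by more, and 9 changed sign. With 1 library removed, C1qc lay between -0.028 and 0.17 and C5ar1 between -0.16 and 0.15. C5ar1 was 0.0012 with limma-voom, 0.0039 with log2(RPKM + 0.1) and 0.033 with the replicate block. C3ar1 fell to 0.27 with log2(RPKM + 1). The count of 1 gene correlated with the macrophage score became 2 without centring by group, 0 with 4 markers, and 0 to 2 over the fits without 1 library. With fibroblast markers in place of macrophage markers it was 0. With red blood cell markers it was 1, again C3 by r but not by rho, in a comparison chosen after seeing the data. Hba1 and Alas2 of that list were among the genes most like C3, so nothing is read from this call. The count of 0 pairs became 1 with log2(RPKM + 0.1) and 3 without centring. The causes were not tested. Replicate numbers gave correlations of -0.14 to 0.09 between same-numbered libraries, and 1 of 8 libraries correlated best with its own number. This gave no sign that the numbers pair the rats, but so few libraries cannot exclude it. With the replicate block, which leaves out MI 5, 11 genes and 0 of the 9 were called. Depth limits C3ar1 most, with 6 to 19 counts per library.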
